A study of Mus musculus with 8 samples.

Results

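This section concerns 10 genes of the Notch pathway in alphaTC6 cells, a cell line from mouse pancreas whose cells make glucagon, as alpha cells do. The genes were chosen by name, with earlier results of these data known. They include the receptors Notch1, Notch2 and Notch3 and the ligands Dll1, Dll3, Jag1 and Jag2. The others are the DNA-binding factor Rbpj and the HES family members Hes1 and Hes6. All 10 were found among the 55536 genes of the count table by symbol, and 8 of them had enough counts to be tested. Poly(A) RNA was sequenced 48 h after reverse transfection with a lipid reagent, from wild-type cells of the line given either a pool of siRNAs against the transcription factor Klf4 or a scramble siRNA. There were 4 libraries per treatment. Of the 5 libraries labelled batch 1, 2 were scramble and 3 Klf4 siRNA, and of the 3 labelled batch 2, 2 were scramble and 1 was Klf4 siRNA. What the batch label stands for is not given in the sources used here. All 8 samples are labelled as this line, although the extraction protocol in the labels speaks of islets. The series text calls the libraries biological replicates. The labels do not say whether they came from separate cultures or transfections, so p-values measure the spread between these libraries.

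Notch receptors are single-pass membrane proteins that are cut when a Delta or Jagged ligand on a neighbouring cell binds them. The released intracellular domain enters the nucleus, joins RBPJ on DNA and switches on target genes, among them the HES and HEY repressors. In the developing pancreas, HES1 holds back Neurog3 and so keeps progenitors from becoming endocrine cells. HES6 is an atypical family member known to counteract HES1, and DLL3 is a divergent ligand that acts inside the cell and does not activate the receptor of a neighbour.

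Library totals ran from 45954151 to 64185987 counts. Klf4 RNA was lower in every Klf4 siRNA library (11.5 to 19.8 CPM, the counts scaled to library size) than in every scramble library (35.1 to 46.8 CPM), with a log2 fold change of -1.33 ± 0.17 (SE, edgeR quasi-likelihood test, adjusted p = 0.0083, 0.052 without scramble replicate 1 and 0.104 in batch 1 alone). The alpha cell markers Gcg, Irx1, Irx2 and Ttr were present in all 8 libraries, and Gcg averaged 1174 CPM in batch 1 and 8462 CPM in batch 2. Among markers of other pancreatic cells, Ins1, Ins2, Pdx1, Amy2b and Ptf1a had 0 counts in all 8 libraries, and Sst, Krt19, Kdr, Col3a1, Ptprc and Cd3e had at most 2. In bulk RNA, fewer cells that express a gene and less RNA per cell cannot be told apart.

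In the scramble libraries the HES genes stood highest of the 10, followed by Rbpj, Notch2 and Dll1, while Jag1 and Notch3 were near 0. To compare genes, levels are given as CPM per kilobase of exon, over the union of a gene's annotated exons. Hes1 was at 9.72 ± 0.955 CPM per kb (SD, n = 4) and Hes6 at 8.65 ± 0.750 CPM per kb, and their ranges overlapped. Rbpj was at 3.21 ± 0.0914, Notch2 at 1.11 ± 0.0236 and Dll1 at 0.751 ± 0.266 CPM per kb, and the ranges of these neighbours did not overlap. Next came Dll3 at 0.124 ± 0.0239, Jag2 at 0.119 ± 0.0412 and Notch1 at 0.0763 ± 0.0317 CPM per kb, whose order was not separated by the spread between libraries. Hes1 lay above 67.7% of all tested genes on this scale and Notch1 above 3.27%. The exon union of Rbpj covers 12.75 kb over 12 annotated transcripts, and a union of this kind understates the level of a gene whose long transcripts are rare.

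**Figure D1:**
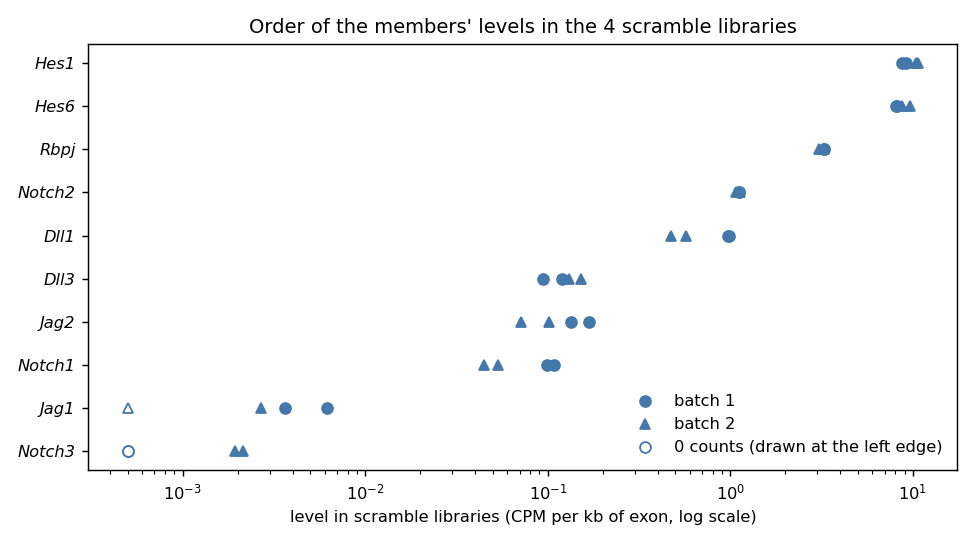
Level of each member in the 4 scramble libraries, in CPM per kb of exon on a log axis, with circles for batch 1 and triangles for batch 2; open symbols mark libraries with 0 counts. Hes1 and Hes6 sit near 10, Notch2 near 1, and Notch1, Jag2 and Dll3 overlap near 0.1.

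Notch2 accounted for most of the receptor RNA. Of the summed level per kb of all 4 mammalian receptors, Notch2 made up between 73.1% and 82.3% in the 8 libraries. The next was Notch4, a receptor best known from endothelium that is not among the 10 genes, at 0.187 ± 0.0136 CPM per kb in the scramble libraries (SD, n = 4) and 12.6% to 18.1% of the sum over the 8 libraries. Its level was above that of Notch1 in every library. Notch3 had 0, 0, 1 and 1 counts in scramble replicates 1 to 4 and 1, 2, 1 and 0 in replicates 1 to 4 given Klf4 siRNA. Jag1, a ligand with broad use in other tissues, had 2, 1, 1 and 0 counts in the scramble libraries and 1, 2, 1 and 0 after Klf4 siRNA. A count of 0 allows up to 3 counts, which is 0.0468 to 0.0637 CPM at these depths, so both genes were at or under the limit of detection and were not tested. Intervals and limits of this kind cover counting error only.

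Promoter windows of 5 members are shown here. Dll1, Notch1 and Jag2 differed between batches in the same direction, and Notch2 had the smallest p of the members after Klf4 siRNA. Rbpj, which passed by neither treatment nor batch in the edgeR fit, is the factor whose own motif was searched. Dll3, which also differed between batches, is not shown. Each window runs from 250 bases before to 50 bases after the annotated start (RefSeq, GRCm38.p6), written 5′ to 3′ on the gene's strand, with capitals marking matches to either of a pair of short motifs on either strand: TGGGAA, the core of the RBPJ site, and CACCC, the box bound by KLF factors.
Dll1, chr17:15375774-15376073, minus strand: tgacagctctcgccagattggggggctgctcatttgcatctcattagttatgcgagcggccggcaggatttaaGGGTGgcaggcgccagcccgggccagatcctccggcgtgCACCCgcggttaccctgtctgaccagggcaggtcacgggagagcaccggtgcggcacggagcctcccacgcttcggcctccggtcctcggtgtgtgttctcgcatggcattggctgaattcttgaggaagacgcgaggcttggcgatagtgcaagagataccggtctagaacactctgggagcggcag
Notch1, chr2:26503773-26504072, minus strand: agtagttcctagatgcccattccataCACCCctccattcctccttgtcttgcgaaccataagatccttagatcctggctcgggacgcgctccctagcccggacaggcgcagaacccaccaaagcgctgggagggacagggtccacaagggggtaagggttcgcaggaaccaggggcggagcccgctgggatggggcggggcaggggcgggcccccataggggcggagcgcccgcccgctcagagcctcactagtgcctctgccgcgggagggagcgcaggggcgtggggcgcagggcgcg
Jag2, chr12:112929446-112929745, minus strand: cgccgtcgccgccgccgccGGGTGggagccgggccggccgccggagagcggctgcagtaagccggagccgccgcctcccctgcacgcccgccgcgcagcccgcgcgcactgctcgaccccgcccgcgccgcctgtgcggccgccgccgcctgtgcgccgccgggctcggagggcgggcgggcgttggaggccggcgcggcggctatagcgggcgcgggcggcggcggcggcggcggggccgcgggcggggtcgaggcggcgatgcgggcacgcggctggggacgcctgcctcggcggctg
Notch2, chr3:98013288-98013587, plus strand: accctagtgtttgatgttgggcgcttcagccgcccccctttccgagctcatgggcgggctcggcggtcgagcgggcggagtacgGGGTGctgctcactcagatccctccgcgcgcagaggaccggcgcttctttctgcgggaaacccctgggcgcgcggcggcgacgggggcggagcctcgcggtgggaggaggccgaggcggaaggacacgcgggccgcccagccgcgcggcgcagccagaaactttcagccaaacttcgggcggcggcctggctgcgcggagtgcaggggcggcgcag
Rbpj, chr5:53590096-53590395, plus strand: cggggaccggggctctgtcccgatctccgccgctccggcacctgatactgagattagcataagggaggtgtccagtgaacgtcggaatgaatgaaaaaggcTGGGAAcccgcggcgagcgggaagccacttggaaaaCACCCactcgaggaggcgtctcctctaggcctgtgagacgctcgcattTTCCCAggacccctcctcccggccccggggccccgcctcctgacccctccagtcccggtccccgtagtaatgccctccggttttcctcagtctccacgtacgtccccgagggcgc

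RefSeq windows were matched for 9 of the 10 members, Hes1 having none in the table used, and these 9 had 12 windows. The RBPJ core was found in the windows of 1 member, Rbpj itself, where it lies 149 and 65 bases before the start in the window shown; the second Rbpj window overlaps this one and holds the latter match. That is 2 of the 12 windows (16.7%), and of all 32851 windows 25.6% hold this core. The CACCC box was found in 5 of the 12 windows (41.7%), the 5 shown, against 57.5% of all windows, and not in the second windows of Dll1 and Rbpj. The windows shown are thus those with a box, and the window of Dll3 holds neither motif. Dll1 has 2 such boxes, 177 and 138 bases before its start. The GC content of the 12 windows ran from 52% in Dll3 to 86% in Jag2, against a median of 52.7% over all windows. These matches describe the letters in the windows and not binding.

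After Klf4 siRNA, no member passed the threshold of 0.05 on the adjusted p. That was 0 of the 8 tested members (edgeR quasi-likelihood with batch as a term), where 11.7% of all 16333 tested genes passed, 4.88% higher and 6.81% lower. At an unadjusted p under 0.05 there were 2 of the 8 members, Notch2 and Dll1, and 3908 of the 16333 tested genes. The count was also 0 with limma-voom, and 0 of the 5 members to which DESeq2 gave an adjusted p. Of the 8 log2 fold changes, 3 were positive and 5 negative, with a median of -0.01 and a median size of 0.11, against 0.08 for the size over all tested genes. With a block for the replicate number instead of batch the count stayed at 0. Under number 4 this block joins a scramble library of batch 2 to a Klf4 siRNA library of batch 1. For genes that differ between batches, its values therefore mix batch into treatment.

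Notch2, the main receptor of these cells (chromosome 3, 98013527 to 98150361 of GRCm38, plus strand, up to 34 exons), came closest. Its level was 12.1, 12.0, 12.1 and 11.6 CPM in scramble replicates 1 to 4 and 10.6, 10.985, 10.2 and 11.4 CPM in replicates 1 to 4 given Klf4 siRNA. Every Klf4 siRNA library was below every scramble library, and Notch2 was the single member whose treatment groups did not overlap, where 10.5% of all tested genes did not. The log2 fold change was -0.16 ± 0.06 (SE, 95% interval -0.28 to -0.04), or 89.5% of the scramble level, and the edgeR adjusted p was 0.072. Within batch 1 the log2 difference was -0.13 and within batch 2 it was -0.21. The adjusted p was 0.040 without Klf4 siRNA replicate 4 and 0.043 when only genes with a mean of at least 5 CPM were fitted, and 0.323 without Klf4 siRNA replicate 3. Scramble replicate 4 was the lowest control for Notch2.

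Notch1 (chromosome 2, 26457903 to 26516663, minus strand) was at 1.41, 1.53, 0.640 and 0.760 CPM in scramble replicates 1 to 4. After Klf4 siRNA it was at 1.64, 1.52, 0.740 and 1.43 CPM. Within each treatment the libraries of batch 2 were the low ones, and the treatments overlapped. The log2 fold change was 0.07 ± 0.14 (SE, 95% interval -0.23 to 0.36, edgeR adjusted p = 0.844). It was 0.32 with the replicate block, where number 4 holds libraries of both batches, and 0.31 with no batch term. With a library left out it was 0.03 to 0.10.

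Among the ligands, Dll1 (chromosome 17, 15367354 to 15376872, minus strand), the Delta ligand with the highest level here, was at 4.17, 4.08, 2.00 and 2.42 CPM in scramble replicates 1 to 4 and at 4.08, 4.00, 1.37 and 2.92 CPM in replicates 1 to 4 given Klf4 siRNA. The groups overlapped. The log2 fold change was -0.30 ± 0.13 (SE, 95% interval -0.57 to -0.03, edgeR adjusted p = 0.153). The difference was -0.18 within batch 1 and -0.67 within batch 2, where Klf4 siRNA replicate 3 was the lowest of all 8 libraries, and the log2 fold change was -0.17 when that library was left out. It was -0.07 with the replicate block and -0.03 with no batch term.

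Jag2 (chromosome 12, 112907819 to 112929776, minus strand), a Serrate-type ligand, was at 1.16, 0.935, 0.499 and 0.708 CPM in scramble replicates 1 to 4 and at 1.32, 1.12, 0.854 and 0.867 CPM after Klf4 siRNA. Dll3 (chromosome 7, 28293553 to 28302238, minus strand) rested on 15 to 36 counts per library. It was at 0.269, 0.340, 0.374 and 0.432 CPM in the scramble libraries and at 0.325, 0.415, 0.684 and 0.283 CPM in the Klf4 siRNA libraries. For both ligands the treatments overlapped. The log2 fold change was 0.20 for Jag2 (95% interval -0.19 to 0.59, edgeR adjusted p = 0.582) and 0.46 for Dll3 (95% interval -0.06 to 0.97, edgeR adjusted p = 0.274). Single libraries moved both values: without Klf4 siRNA replicate 3 they were 0.06 and 0.18, and Jag2 was at 0.36 when scramble replicate 1 was left out.

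For Rbpj and the HES genes the intervals of the change were narrow and included 0. Rbpj (chromosome 5, 53466152 to 53657362, plus strand) was at 41.4, 41.5, 41.4 and 39.1 CPM in scramble replicates 1 to 4 and at 40.8, 42.6, 38.7 and 43.0 CPM in replicates 1 to 4 given Klf4 siRNA. Its level after Klf4 siRNA was 99.7% of the scramble level, with a 95% interval of 94.6% to 105% (edgeR adjusted p = 0.962). Hes1 (chromosome 16, 30064384 to 30067796, plus strand), the classic target of the pathway, was at 18.6, 17.7, 21.2 and 21.7 CPM in the scramble libraries and at 17.5, 16.3, 21.1 and 20.7 CPM after Klf4 siRNA. That was 99.3% of the scramble level (95% interval 90.7% to 109%, edgeR adjusted p = 0.956). Hes6 (chromosome 1, 91411483 to 91414038, minus strand) was at 14.5, 14.7, 15.7 and 17.5 CPM in scramble replicates 1 to 4. After Klf4 siRNA it was at 14.0, 15.5, 15.2 and 13.9 CPM, or 96.2% of the scramble level (95% interval 88.6% to 105%, edgeR adjusted p = 0.630). For these 3 genes the treatments overlapped.

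**Figure D2:**
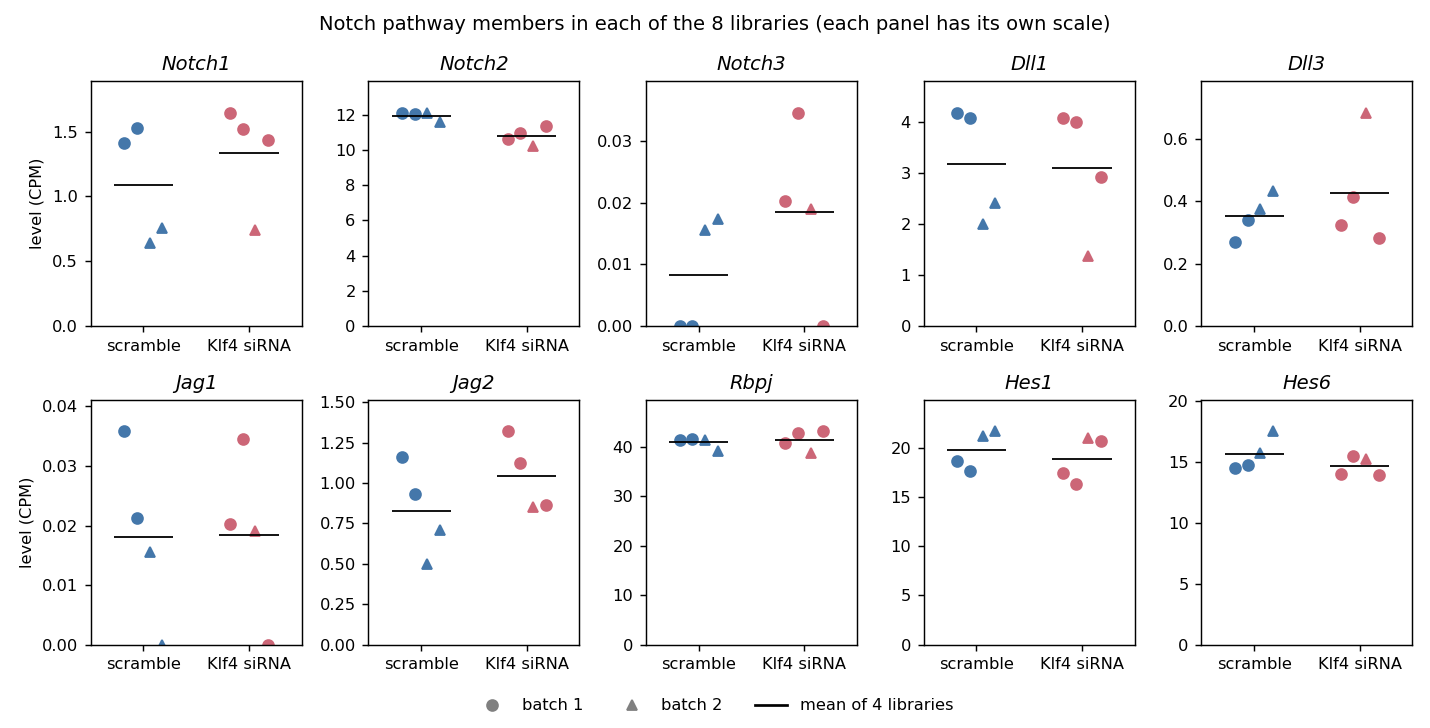
Level in CPM of each of the 10 members in each library, by treatment; circles are batch 1, triangles batch 2, and bars the mean of the 4 libraries of a treatment. For Notch1 and Dll1 the triangles lie below the circles in both treatments, whereas for Notch2 the Klf4 siRNA libraries (10.2 to 11.4 CPM) lie just below the scramble libraries (11.6 to 12.1 CPM).

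The larger differences among the members were between the batches. In the same fit, 5 of the 8 tested members differed between batch 2 and batch 1 at an edgeR adjusted p under 0.05, where 32.7% of all tested genes did. Notch1, Dll1 and Jag2 were lower in batch 2 (15.9% of all tested genes were), and Hes1 and Dll3 were higher (16.8% of all tested genes were). Limma-voom also gave 5 (32.5% of all tested genes called) and DESeq2 gave 3 (28.9%). For 4 of the 8, Notch1, Dll1, Jag2 and Hes1, the 5 libraries of batch 1 and the 3 of batch 2 did not overlap, where 29.4% of all tested genes did not.

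Dll1 was at 3.85 ± 0.523 CPM in batch 1 (SD, n = 5) and at 1.93 ± 0.529 CPM in batch 2 (SD, n = 3), a log2 difference of -1.08 ± 0.14 (SE, edgeR adjusted p = 5.75e-06), or 2.12-fold lower in batch 2. Klf4 siRNA replicate 4, labelled batch 1, lay between the other libraries of batch 1 and those of batch 2 at 2.92 CPM. Among the scramble libraries alone the difference was -0.90. Notch1 was at 1.51 ± 0.0918 CPM in batch 1 and 0.713 ± 0.0644 CPM in batch 2, a log2 difference of -1.06 ± 0.15 (SE, edgeR adjusted p = 1.76e-05), or 2.09-fold lower in batch 2, and -1.04 among the scramble libraries alone. The Notch1 share of the summed level per kb of the 4 receptors was 7.12% to 8.57% in batch 1 and 3.28% to 4.31% in batch 2. The calls of both genes held with each of the 8 libraries left out in turn.

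Jag2 was at 1.08 ± 0.182 CPM in batch 1 and 0.687 ± 0.178 CPM in batch 2, a log2 difference of -0.62 ± 0.20 (SE, edgeR adjusted p = 0.021). Its adjusted p was 0.115 without scramble replicate 1, 0.108 without scramble replicate 3 and 0.053 with DESeq2. Hes1 was at 18.2 ± 1.65 CPM in batch 1 and 21.3 ± 0.335 CPM in batch 2, a log2 difference of 0.23 ± 0.06 (SE, edgeR adjusted p = 0.010). Without scramble replicate 2 its adjusted p was 0.05002 and without Klf4 siRNA replicate 3 it was 0.064. Dll3 had a log2 difference of 0.71 ± 0.25 (SE, edgeR adjusted p = 0.033). Leaving out single libraries took the call away in 5 of 8 cases, and without Klf4 siRNA replicate 3 the difference was 0.41 (adjusted p = 0.442).

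The remaining 3 tested members did not pass by batch. Notch2 differed by -0.06 (95% interval -0.18 to 0.06, edgeR adjusted p = 0.478). Rbpj differed by -0.08 (edgeR adjusted p = 0.126, and 0.045 with library sizes not scaled by TMM). Hes6 differed by 0.14 (edgeR adjusted p = 0.086; leaving out Klf4 siRNA replicate 2 gave 0.037).

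**Figure D3:**
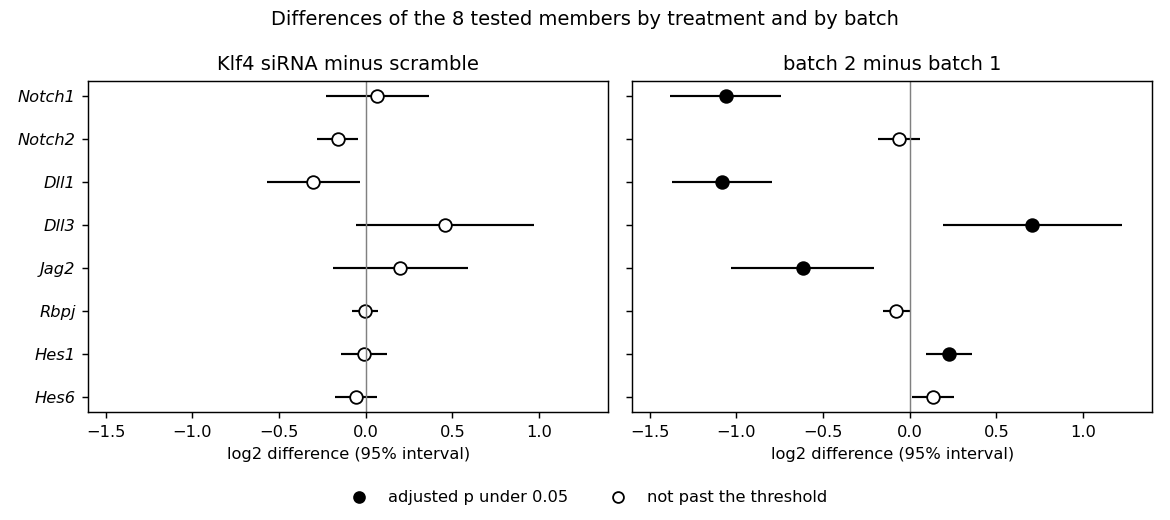
Log2 difference of each of the 8 tested members after Klf4 siRNA (left) and between batch 2 and batch 1 (right), with 95% intervals not adjusted for the number of genes; filled points passed an adjusted p of 0.05. No point is filled on the left and 5 are filled on the right, with Notch1 and Dll1 near -1.

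Markers of other cell types also moved with batch, and their part in these differences was not tested. Among duct markers, Sox9 averaged 1.32 CPM in batch 1 and 4.16 CPM in batch 2, Spp1 averaged 0.157 and 1.71 CPM, and Krt19 had at most 2 counts. The stromal list (Col1a1, Col3a1, Pdgfra and Pdgfrb; 2 of 4 tested, Col3a1 with at most 1 count) summed to 5.49 to 7.54 CPM in batch 1 and 3.25 to 3.68 CPM in batch 2, nearly all from Pdgfra, whose mean was 6.42 CPM in batch 1 and 3.04 CPM in batch 2, while Col1a1 was at 0.0781 and 0.137 CPM. The leukocyte list (Ptprc, Cd68 and Cd3e; 1 of 3 tested, Ptprc and Cd3e with at most 1 count) summed to 1.56 to 1.67 CPM in batch 1 and 2.00 to 2.50 CPM in batch 2, nearly all from Cd68. Between batches the ranges overlapped for the beta cell list (2.85 to 3.85 CPM over all libraries, nearly all from Mafa), the acinar list (5.81 to 7.32 CPM, nearly all from Cela1) and the list for delta and PP cells (Sst, Hhex and Ppy, at most 0.203 CPM). By treatment that last list did not overlap, at 0.0173 to 0.0637 CPM in the scramble libraries and 0.0949 to 0.203 CPM after Klf4 siRNA, on at most 9 counts for any of its genes, while the other lists summed here overlapped. The endothelial list (Pecam1, Cdh5, Kdr and Tek), which matters because those cells use Notch signalling heavily, summed to 0.339 to 0.450 CPM in batch 1 and 0.345 to 0.484 CPM in batch 2, with Kdr at no more than 1 count.

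Reads shared with overlapping annotations could touch some members, since the use of strand in counting is not given in the sources used here. Exons of Notch1 overlap those of other annotations, and the most abundant of the annotations in its span, 0610009E02Rik on the opposite strand, had a log2 batch difference of 0.08 (edgeR adjusted p = 0.775). Exons of Dll1 overlap the opposite-strand annotation A930024N18Rik, which had 2 to 11 counts per library. For Notch2 the overlapping annotations Gm42819 and Gm42820 had at most 2 counts.

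Whether the change after Klf4 siRNA differed between batches was tested with an interaction term. It passed for 0 of the 8 members (edgeR; 0 at an unadjusted p under 0.05, and 0 with DESeq2 and limma-voom) and for 0% of all tested genes, of which 540 were at an unadjusted p under 0.05. Dll1 had the smallest unadjusted p of the members, 0.077, at an interaction of -0.52 (95% interval -1.09 to 0.06, edgeR adjusted p = 0.999). Batch 2 held 1 Klf4 siRNA library, and the intervals were wide for the low ligands, reaching 1.59 for Dll3 and 1.28 for Jag2.

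Outside the 10 members, 73 further genes of the pathway were listed in 8 groups by role, and 61 were tested. After Klf4 siRNA, 15 of these passed, 6 higher and 9 lower, which is 24.6% against the 11.7% of all tested genes. The lists were drawn up with earlier results of these data known, so their shares are descriptions and no test of the pathway. Among genes with a mean of at least 5 CPM, 14 of 50 passed, where 19.4% of all genes did. The median log2 fold change over the 61 genes was -0.02, against 0.00 over all tested genes. Under alternatives that also called fewer of all genes, the count was 6 when scramble replicate 2 was left out (6.06% of all tested genes called), 7 when Klf4 siRNA replicate 3 was (7.44%), 8 when scramble replicate 1 was (5.63%) or with batch 1 alone (7.44%), and 2 with no batch term (2.5%). Ctbp2 and Neurod1 passed under every alternative run, and Adam17 under all but the fit with no batch term.

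Among the target genes, Hey1, a basic helix-loop-helix repressor that is switched on by Notch in many cells, fell. It was at 30.6, 27.2, 28.9 and 27.0 CPM in scramble replicates 1 to 4 and at 25.5, 25.8, 23.5 and 25.3 CPM after Klf4 siRNA, with no overlap. The log2 fold change was -0.21 ± 0.05 (SE, edgeR adjusted p = 0.0046), -0.18 within batch 1 and -0.25 within batch 2. Leaving out scramble replicate 1 gave an adjusted p of 0.074 and leaving out Klf4 siRNA replicate 3 gave 0.063, and it was 0.060 with batch 1 alone and 0.057 with the replicate block. Of the 8 target genes listed beside the members, 4 were tested and Hey1 was the single one past the threshold (25%, against 11.7% of all tested genes). Hes2, Hes3, Hes5 and Nrarp, the last a feedback inhibitor of the pathway, had at most 2 counts in any library.

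The sheddases that cut ligand-bound receptors went in opposite directions. Adam17 fell, from a mean of 23.8 ± 2.56 CPM in scramble libraries to 19.4 ± 1.10 CPM (SD, n = 4), a log2 fold change of -0.34 ± 0.05 (SE, edgeR adjusted p = 0.00010). Adam10, the sheddase chiefly used by ligand-activated Notch, rose by 0.14 ± 0.03 (SE, edgeR adjusted p = 0.013, 0.125 without scramble replicate 2 and 0.060 without scramble replicate 1). With the replicate block the value for Adam10, which also differed between batches, was 0.22 (edgeR adjusted p = 0.251). Of the 10 proteases, all tested, these were the 2 that passed (20%, against 11.7% of all tested genes), and the median log2 fold change was 0.05. Among 5 enzymes that glycosylate the receptors, 4 were tested and 1 passed (25%, against 11.7% of all tested genes). This was Pofut1, which adds O-fucose and rose by 0.13 (edgeR adjusted p = 0.037, lost on leaving out 6 of the 8 libraries in turn, and up to 0.146 there, and 0.113 with library sizes not scaled by TMM).

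Of 13 genes for endocytosis and turnover, 4 passed (30.8%, against 11.7% of all tested genes), 2 in each direction, and the median log2 fold change was -0.02. Dtx4, a Deltex ubiquitin ligase, had a log2 change of -0.40 (edgeR adjusted p = 0.0081, 0.060 without scramble replicate 2 and 0.054 without Klf4 siRNA replicate 3), and Mib2, a ligase that drives ligand endocytosis, of -0.12 (0.023, 0.154 without scramble replicate 1 and 0.135 when Klf4 siRNA replicate 3 was left out). Fbxw7, which marks the intracellular domain for degradation, had a log2 change of 0.15 (edgeR adjusted p = 0.040), a call lost on leaving out 7 of the 8 libraries in turn and with the replicate block (0.081) or library sizes not scaled by TMM (0.072). With the replicate block the adjusted p was 0.270 for Dtx4 and 0.065 for Mib2.

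Of 8 coactivators (median -0.0034 on the log2 scale), 1 passed (12.5%, against 11.7% of all tested genes). This was Maml3, a scaffold of the RBPJ complex, at a log2 change of -0.21 (edgeR adjusted p = 0.0061). Its difference was -0.28 within batch 1 and -0.07 within batch 2, and its adjusted p was 0.067 without scramble replicate 1, 0.060 without scramble replicate 2 and 0.278 with the replicate block.

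Of 14 tested corepressor genes, 4 fell and 1 rose, and 11 of the 14 log2 fold changes were negative (median -0.05). Over all 16333 tested genes 6.81% fell, 4.88% rose and 8161 fold changes were negative. Ctbp2, a corepressor recruited by many transcription factors, fell, from a mean of 45.7 ± 1.01 CPM in scramble libraries to 37.0 ± 0.817 CPM (SD, n = 4), with no overlap, a log2 fold change of -0.31 ± 0.03 (SE, edgeR adjusted p = 3.79e-06). Ctbp1 had a log2 change of -0.11 (edgeR adjusted p = 0.0075, 0.075 without scramble replicate 2 and 0.0503 without scramble replicate 1) and Kdm5a, a histone demethylase, of 0.12 (0.0058, and 0.053 without Klf4 siRNA replicate 3 and 0.082 with the replicate block). In the group of proneural and endocrine factors, 1 of 6 tested genes passed (16.7%, against 11.7% of all tested genes). This was Neurod1, at 0.41 ± 0.06 (SE, edgeR adjusted p = 0.0011). The 2 tested genes of the list of other receptors and ligands did not pass. Exons of Adam17, Ctbp2, Kdm5a, Neurod1 and Ncstn overlap those of other annotations, so reads could be shared there. Neurog3, the gene that HES1 represses in pancreatic progenitors, had at most 1 count.

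**Figure D4:**
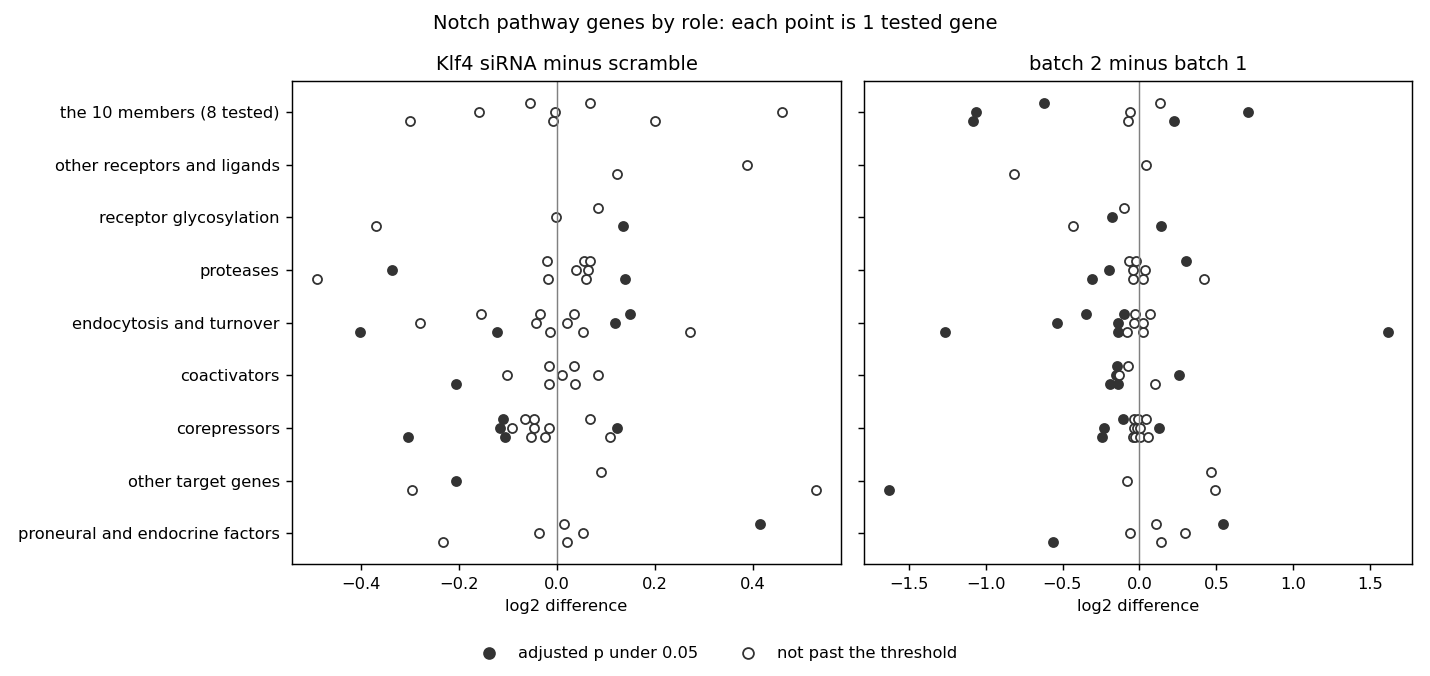
Log2 difference of each tested Notch pathway gene, by role, after Klf4 siRNA (left) and between batches (right); filled points passed an edgeR adjusted p of 0.05 and the panels have different scales. Of the other pathway genes 15 are filled on the left and 24 on the right, while the row of the members has 0 filled on the left and 5 on the right.

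By batch, 24 of the 61 tested genes outside the members passed, 6 higher and 18 lower in batch 2, or 39.3% against 32.7% of all tested genes. Dtx1, a Deltex ligase and a Notch target in lymphocytes, was at 48.1 ± 2.00 CPM in batch 1 (SD, n = 5) and 20.2 ± 0.148 CPM in batch 2 (SD, n = 3). Its log2 difference was -1.26 ± 0.04 (SE, edgeR adjusted p = 3.12e-15), and it was lower in each of the 3 libraries of batch 2 than in each of the 5 of batch 1, as were Notch1 and Dll1. Heyl, a HEY family target, differed by -1.62 (edgeR adjusted p = 0.0014) on 3 to 28 counts per library, and by -1.08 without Klf4 siRNA replicate 3 (0.058). Dtx3l was higher in batch 2, by 1.61 (edgeR adjusted p = 7.48e-08). Its exons overlap those of Parp9 on the opposite strand.

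Smaller batch differences were found along the pathway. Ncstn, a subunit of gamma-secretase, was higher in batch 2 by 0.30 (edgeR adjusted p = 4.08e-08) and Adam10 lower by 0.31 (1.15e-06). Insm1, an endocrine transcription factor, was higher by 0.55 (edgeR adjusted p = 5.51e-08) and Atoh8 lower by 0.56 (0.0069). Crebbp, a histone acetyltransferase, was higher by 0.26 (edgeR adjusted p = 0.00015), and Kat2a, another, lower by 0.15 (0.00031). Poglut1 differed by -0.18 and Rfng by 0.14, both enzymes that add sugars to the receptors (edgeR adjusted p = 0.00027 and 0.0025, the latter 0.051 without Klf4 siRNA replicate 3). Kdm5a differed by -0.24 (edgeR adjusted p = 1.48e-06).

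The genes whose pattern over the 8 libraries was most like that of Notch2, the member with the smallest adjusted p by treatment, were B9d1, Ptpn9, Robo1, Pgam5 and Rgma. Their Pearson correlations with Notch2 on log2 CPM were 0.97, 0.96, 0.95, 0.95 and 0.95, and 47 tested genes were above 0.9. The 8 points share treatment and batch, so these are descriptions only. Their log2 changes after Klf4 siRNA were -0.18 for B9d1 (edgeR adjusted p = 0.114), -0.19 for Ptpn9 (0.0017), -0.46 for Robo1 (6.27e-09), -0.11 for Pgam5 (0.020) and -0.17 for Rgma (0.042).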

How the data were processed

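Poly(A) RNA of alphaTC6 cells was sequenced in 8 libraries, 4 per treatment. The authors deposited raw counts, as whole numbers for each gene. Per the submitters' processing notes, the tools named are FastQC, STAR, featureCounts and DESeq2 and the build is mm10, with no role, order or version. The name of the deposited table speaks of cutadapt, and the series text of edgeR with batch correction. Strand use is not given in the sources used here. All 55536 identifiers and symbols matched GENCODE M21 (GRCm38), which gave positions and exon lengths.

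Genes were kept with filterByExpr on treatment (16333), scaled with TMM and fitted in edgeR 4.0.16 (R 4.3.3) with a robust quasi-likelihood model of batch and treatment. P-values are two-sided and Benjamini-Hochberg adjusted over all tested genes, with a threshold of 0.05. The standard error is the log2 fold change over the square root of F. Interactions had a fit of their own. Within-batch values are differences of mean log2 CPM (prior count 2). Alternatives used DESeq2 1.42.0, limma-voom 3.58.1, other scalings, filters and terms, and left out each library. The members and lists were chosen with earlier results of these data known. Outside the members, the rule named Klf4, from each list at most 3 genes by treatment and 2 by batch with the smallest adjusted p, and the 5 genes most like the leading member. Marker genes were read as levels, and the untested genes and further members of a list given with them were added after their values were seen. Some listed genes are not reported here.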

Additional observations from a re-analysis of the deposited data

Results flagged for a closer look

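In each treatment the level of every member was examined for a library far from the other 3, by dividing its distance from the next library by the whole range. Scramble replicate 4 lay apart for Notch2 (0.910), at 11.6 CPM against 12.0 to 12.1 CPM in the other scramble libraries. It also lay apart for Rbpj (0.937), at 39.1 CPM against 41.4 to 41.5 CPM. These were 2 of 20 groups examined, where chance passes about 1 in 20.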

How the results depend on the processing

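The count of 0 members past the threshold after Klf4 siRNA became 1, Notch2, when only genes with a mean of at least 5 CPM were fitted (4 members tested, 19.4% of all genes called), and ranged from 0 to 1 over the fits that left out a library (5.63% to 12.1%). The count by batch was 3 with DESeq2 (28.9% of all genes called), 1 of 4 with the 5 CPM filter (39.1%), and 3 to 6 with a library left out (23.2% to 37.2%). The interaction count was 0 under every alternative run; it could not be fitted without Klf4 siRNA replicate 3. Among the other pathway genes, the 15 called by treatment became 2 without the batch term (2.5% of all tested genes called), 8 with batch 1 alone (7.44%) and 6 to 15 with a library left out, and 17 to 30 were called by batch with a library left out. With the replicate block instead of batch, 0 members and 11 other pathway genes were called by treatment (7.47% of all tested genes). The batch differences of Notch1 and Dll1 kept their call under all 13 alternatives that could be run for them. The treatment value of Rbpj changed sign to 0.015 without the batch term, 0.014 with the replicate block and 0.021 with batch 1 alone, and ranged from -0.0165 to 0.0239 with a library left out. That of Hes1 ranged from -0.0718 to 0.0327 there. None of these passed the threshold, and the cause was not tested. Deviations from the treatment mean correlated at 0.49, 0.42, 0.72 and -0.34 between the scramble and Klf4 siRNA libraries of numbers 1 to 4, and at -0.00053, -0.04, -0.30 and 0.12 once batch was taken out. Pairing was taken only if all 4 were over 0.1, which neither set met, so the libraries share a number only. Dll3, Notch3 and Jag1 are limited by their counts.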
